A study of Mus musculus with 9 samples.

Results

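Of the 60691 probes of the array, 1 could be assigned to Carhsp1 here, probe A_51_P163444, and Carhsp1 is 1 of 46 genes whose probe could be given a symbol. The gene was chosen by its level (log2 intensity minus the 75th percentile of the array) in the 3 groups, so these levels are given as a description and no test of them is reported. RNA from the upper and middle lobes of the right lung of 9 male C57BL/6J mice, labelled as 20 weeks old, was hybridised to 1-colour Agilent arrays each array being taken here as 1 mouse. The RNA had been freed of rRNA and was copied from random primers along the whole transcript. Control mice ate normal chow for 12 weeks and received sterile saline (n = 3, labelled body weight 31 ± 0.5 g). Mice of the HFD group ate a high-fat diet with 60% of its calories from fat for 12 weeks and also received sterile saline (n = 3, 45 ± 0.5 g). Mice of the HFD + LPS group ate the same high-fat diet and were given lipopolysaccharide (LPS), a bacterial cell wall component, into the trachea 24 h before the lung was taken (n = 3, 45 ± 0.5 g). No group combined normal chow with LPS, so the effect of LPS and its interplay with the diet cannot be told apart.

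Carhsp1 encodes calcium-regulated heat-stable protein 1, a small cytoplasmic protein with a cold shock domain, the fold by which many proteins bind single-stranded RNA. It is a substrate of the phosphatase calcineurin, and in macrophages it is known to bind the AU-rich element of the Tnf mRNA and to make that mRNA more stable. Tnf encodes TNF-α, an early cytokine of the response to LPS, and its mRNA is short-lived because proteins such as tristetraprolin (Zfp36) direct it to decay. The lobes hold many cell types, so a higher signal from more cells that express a gene and one from more RNA per cell cannot be told apart. The comparisons ask how the lung level of this transcript differs with the high-fat diet and with LPS on top of it.

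The lung signal of Carhsp1 was highest in the HFD + LPS group, where each of the 3 mice lay above each of the other 6. Relative to HFD the level was 1.21 higher on the log2 scale (standard error 0.29), which is 2.32-fold, and relative to control it was 1.63 higher (standard error 0.29), which is 3.10-fold. Between HFD and control the difference was 0.42 (standard error 0.29), which is 1.33-fold, and the mice of these groups overlapped. The standard errors come from the limma fit to all probes, and each comparison rests on 3 mice against 3, a number that limits the precision.

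The array carries the Carhsp1 probe 10 times, which shows how exactly the signal was read in each mouse. Of the 90 spots, 2 were flagged as outliers by the scanner software, 1 on the array of control replicate 1 and 1 on that of HFD + LPS replicate 2, and 88 were used. Every spot was well above background on every array, and none was saturated. The median ratio of spot to local background lay between 35.3 (control replicate 1) and 283 (HFD + LPS replicate 1), so the probe was far from the lower limit of the scanner in all mice.

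Before normalisation, the spots used gave intensities from 422 to 535 in control replicate 1, from 778 to 957 in control replicate 2 and from 616 to 755 in control replicate 3. In the HFD group they lay between 582 and 674 in replicate 1, between 1386 and 1867 in replicate 2 and between 864 and 1161 in replicate 3. After LPS the range was 2849 to 3892 in replicate 1, 2234 to 2773 in replicate 2 and 2717 to 3136 in replicate 3. Of the spots used, the dimmest of any HFD + LPS mouse was brighter than the brightest of any mouse without LPS, whereas the spots of HFD replicate 1 overlapped those of control replicate 3.

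**Figure D1:**
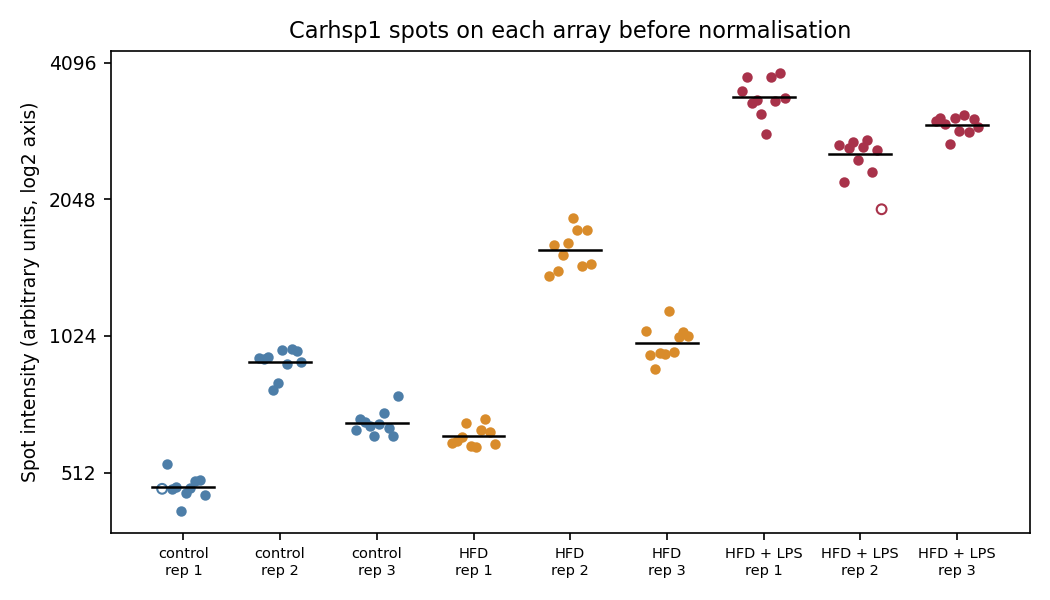
Intensity of each Carhsp1 spot on the 9 arrays before normalisation (log2 axis, arbitrary units). Filled points are spots used, open points are the 2 spots flagged as outliers, and lines mark the mean of the log2 values of the spots used. The 3 HFD + LPS arrays lie above all other arrays.

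On the log2 scale, repeated spots of 1 array had an SD between 0.064 and 0.15, lowest in HFD + LPS replicate 3 and highest in HFD replicate 2, with a median of 0.10. Between mice the SD of the Carhsp1 level was 0.44 in control, 0.30 in HFD and 0.33 in HFD + LPS. The spread between spots leaves out labelling and hybridisation. The position of a spot mattered little, as the mean deviation of a spot from its array over all arrays lay between -0.071 and 0.060. For 26 other gene-named probes that also have 10 spots and were well above background on all 9 arrays, the median SD between spots was 0.062 to 0.18 per array. Of the 17932 probes well above background on all arrays, 85.7% had a smaller SD between control mice than Carhsp1. In HFD this share was 64.8%, and in HFD + LPS 52.9%. As Carhsp1 was chosen by these levels, nothing is read from these shares.

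To compare mice, the 75th percentile of all probes of an array was subtracted from each log2 value, and the result is called the level here. In control mice the Carhsp1 level was 3.28, 4.14 and 3.61, with a mean of 3.67 ± 0.44 (SD, n = 3). In HFD mice it was 3.81, 4.41 and 4.06, with a mean of 4.09 ± 0.30 (SD, n = 3). In HFD + LPS mice it was 5.62, 5.34 and 4.96, with a mean of 5.31 ± 0.33 (SD, n = 3). The order of the group means was control, HFD, HFD + LPS. Control replicate 2 lay above 2 of the 3 HFD mice, so these neighbours in the order do not differ beyond their spread, while the lowest HFD + LPS mouse lay 0.56 above the highest HFD mouse.

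**Figure D2:**
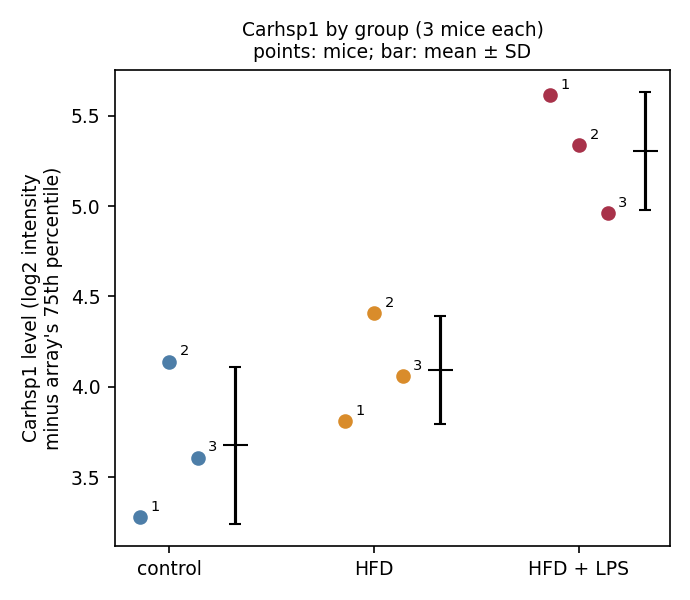
Carhsp1 level in each mouse (log2 intensity minus the 75th percentile of the array), with the replicate number beside each point and the mean ± SD of 3 mice at the right. Control and HFD mice overlap between 3.81 and 4.14, and HFD + LPS mice start at 4.96.

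Counted over pairs of mice, HFD was above control in 7 of 9 pairs, with differences from -0.33 to 1.13. HFD + LPS was above HFD in 9 of 9 pairs, with differences from 0.56 to 1.81, and above control in 9 of 9 pairs, with differences from 0.82 to 2.34. Over all probes tested, 10.2% and 14.1% had no overlap in this direction. The comparison of HFD with control and that of HFD + LPS with HFD share the HFD mice, so a high or low HFD mouse moves both in opposite directions. The chosen pattern fixes what these counts look like, and they add no independent evidence.

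Array brightness differed between the groups in the same order as Carhsp1. The 75th percentile before normalisation was 5.68 ± 0.07 (log2, SD, n = 3) in control, 5.86 ± 0.38 in HFD and 6.24 ± 0.31 in HFD + LPS. Without normalisation the Carhsp1 values were 9.35 ± 0.46, 9.95 ± 0.68 and 11.54 ± 0.21 (log2, SD, n = 3), so the differences became larger, at 0.59, 1.59 and 2.19. The median of all probes tested shifted in the same direction, by 0.18, 0.38 and 0.56. With brightness as a covariate in the fit they were 0.39 for HFD vs. control, 1.15 for HFD + LPS vs. HFD and 1.54 for HFD + LPS vs. control. Within groups, r between Carhsp1 and the brightness of the array was 0.69 over 9 arrays before normalisation and 0.14 after it, where the brightness itself has been subtracted. The part of array brightness in the Carhsp1 differences was not tested. On the array of HFD + LPS replicate 2, 32.6% of the probes were well above background, compared with 40.6% to 55.6% elsewhere, and its negative control spots had a median intensity of 7.53, compared with 2.10 to 4.02. Its Carhsp1 level of 5.34 was the middle one of its group.

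The place of the arrays was unevenly divided between the groups. The position codes in the scanner headers place all controls in row 1, together with 1 HFD mouse (replicate 1) and 1 HFD + LPS mouse (replicate 3), and the remaining 4 arrays in row 2. HFD + LPS replicate 3 was scanned apart from the other 8. Within row 2, Carhsp1 was 1.24 higher in 2 HFD + LPS mice than in 2 HFD mice, and within row 1 it was 1.15 higher in HFD + LPS replicate 3 than in HFD replicate 1. Within the scan of 8 arrays the difference of HFD + LPS and HFD was 1.39. The means behind the row 2 value were 5.48 and 4.23, and the row 1 value sets 1 array against 1, with the HFD + LPS array also the only one of its scan. Within row 1, HFD replicate 1 was only 0.13 above the mean of the control mice, and with row as a term in the fit HFD vs. control was 0.10 in place of 0.42. Row 1 holds only 1 HFD mouse and row 2 no control mouse, so row and diet can hardly be told apart for this comparison. HFD + LPS vs. control was 1.29 within row 1 and 1.32 with row as a term.

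The difference between HFD and control also rested on single mice. It was 0.22 without control replicate 1, 0.65 without control replicate 2 and 0.26 without HFD replicate 2, each more than 1.5 times away from 0.42. Leaving out any of the 6 mice moved HFD + LPS vs. HFD only between 1.06 and 1.39, and HFD + LPS vs. control between 1.43 and 1.86. The way the spots were read mattered less. With the median of the spots in place of the mean of their logs, the Carhsp1 differences were 0.40, 1.24 and 1.64 for HFD vs. control, HFD + LPS vs. HFD and HFD + LPS vs. control. With the signal before spatial detrending they were 0.41, 1.22 and 1.63, and with each array scaled to its 27 other accession probes 0.38, 1.15 and 1.53, both alternatives chosen after seeing the data. Quantile normalisation gave 0.39, 1.13 and 1.52, and subtraction of the median of all probes 0.37, 1.38 and 1.75.

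**Figure D3:**
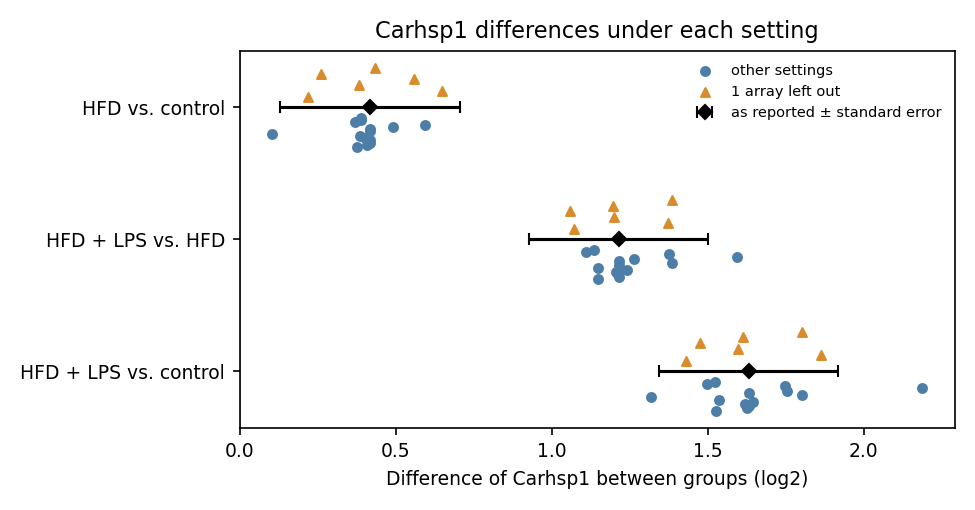
Difference of the Carhsp1 level between groups (log2, x axis) as reported with its standard error (black), with 1 array left out (orange) and with other normalisations, background corrections, spot summaries and fits (blue). HFD vs. control ranges from 0.10 to 0.65, and both comparisons with LPS stay above 1.

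Over all probes, the differences were centred near 0. For HFD vs. control the median over 29978 probes tested was 0.022 (log2), with quartiles of -0.17 and 0.22, and 11.2% of the probes had a signed difference at or above that of Carhsp1, negative differences not being counted. For HFD + LPS vs. HFD the median over 29698 probes was -0.050, with quartiles of -0.38 and 0.27, and 1.89% were at or above Carhsp1, again in the positive direction only. For HFD + LPS vs. control the median over 28264 probes was -0.017, and 1.26% were at or above it in the same sense. Groups that do not overlap were found for 11.8% of the probes in HFD vs. control (6.87% with HFD higher), where Carhsp1 did overlap. The share was 22.9% in HFD + LPS vs. HFD (10.2% with HFD + LPS higher) and 29.9% in HFD + LPS vs. control (14.1% with HFD + LPS higher), where Carhsp1 did not overlap. Probes with an adjusted p under 0.05 (limma) made up 0% in HFD vs. control, 0.249% in HFD + LPS vs. HFD (0.182% higher) and 4.01% in HFD + LPS vs. control (1.83% higher). As Carhsp1 was picked for these values, nothing is read from its place among the probes.

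**Figure D4:**
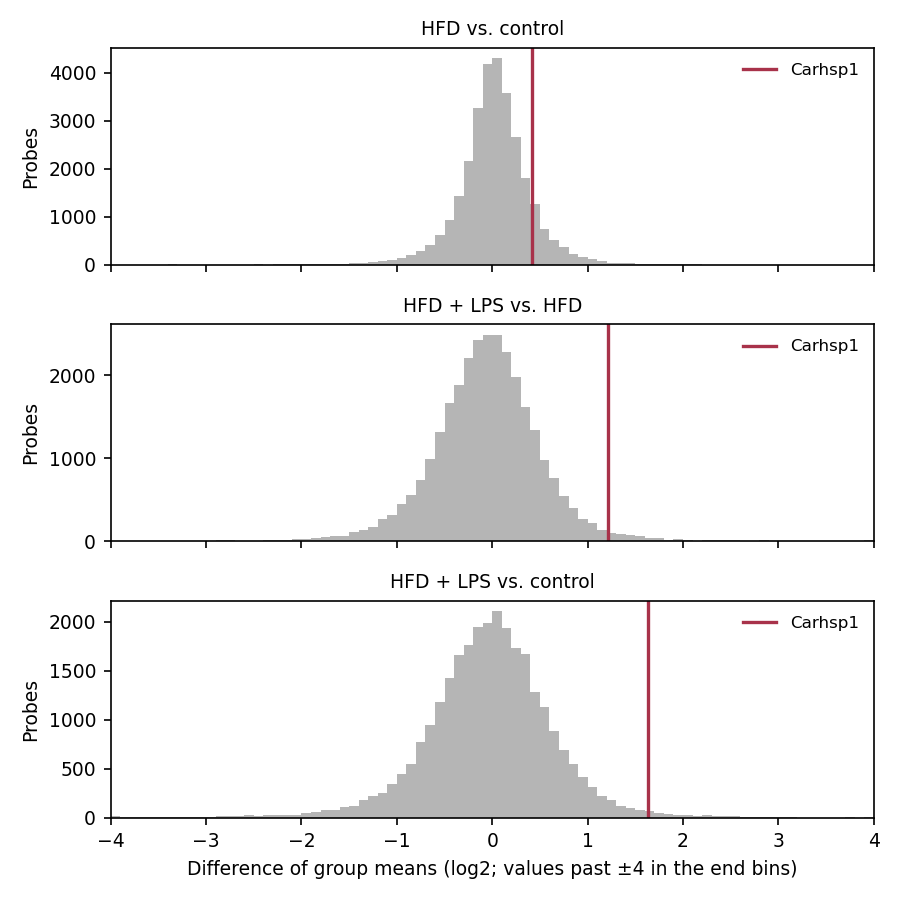
Number of probes (y axis) by the difference of their group means (log2, x axis, bins of 0.1) in each comparison, with the difference of Carhsp1 as a red line. Carhsp1 lies at 0.42, 1.21 and 1.63, above the upper quartile of 0.22 for HFD vs. control and in the upper tail for both comparisons with LPS.

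Among the gene-named probes tested, ordered from the most positive to the most negative difference, Carhsp1 had rank 1 of 40 in HFD + LPS vs. HFD and rank 1 of 36 in HFD + LPS vs. control. It had rank 6 of 39 in HFD vs. control. Negative differences of greater size were present, such as that of Actb. The medians of the gene-named probes were 0.082, 0.18 and 0.027 in the same order. Groups without overlap and with the first group higher were found for 6, 10 and 8 of these probes, Carhsp1 being among the 6 and the 10, while the share over all probes was 10.2%, 14.1% and 6.87%. Nothing is read from these counts for Carhsp1.

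The RNA on which Carhsp1 is known to act could not be followed. Of 20 genes that control the Tnf mRNA, Tnf itself and Zfp36 included, 0 had a probe with a symbol here, and the same held for 20 inflammatory genes such as Il1b, Il6 and Cxcl2. Most probes carry only identifiers of the manufacturer, and their genes were not analysed here. Of 50 markers of lung, immune and fat cell types, such as Sftpc of alveolar type 2 cells, Marco of alveolar macrophages and S100a8 of neutrophils, 0 had a probe with a symbol, so the tissue label and a shift in cell types were not tested. Of 14 genes for cold shock domain proteins and for proteins tied to Carhsp1, Ppara had a probe.

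Ppara encodes the nuclear receptor PPARα, which turns on genes of fatty acid oxidation. Its levels were -0.88, -0.05 and -0.66 in control, -1.24, -0.68 and -0.19 in HFD, and -0.10, -1.67 and -0.96 in HFD + LPS, with 2 of the 3 HFD + LPS arrays well above background. The groups overlapped throughout. Without normalisation, which adds the same shift to every probe in a comparison (0.18, 0.38 and 0.56), the Ppara differences were 0.0011, 0.18 and 0.18. Its differences were -0.18 (adjusted p = 1.00) for HFD vs. control, -0.20 (adjusted p = 0.834) for HFD + LPS vs. HFD and -0.38 (adjusted p = 0.602) for HFD + LPS vs. control, by limma with Benjamini-Hochberg adjustment over all probes tested.

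The Actb probe, whose β-actin transcript served as the reference in the study's RT-qPCR, went the other way from Carhsp1. Its mean level in control was 0.67, against 3.67 for Carhsp1, and its SD between HFD mice was 1.23. Whether this probe tracks the amount of β-actin mRNA was not tested. Its levels were 1.09, 0.10 and 0.82 in control, 1.69, -0.76 and 0.67 in HFD, and -1.23, -2.31 and -2.23 in HFD + LPS, where 2 of the 3 arrays were well above background. All HFD + LPS mice lay below all other mice. Compared with control it fell by 2.60 in HFD + LPS (standard error 0.56, adjusted p = 0.0396 by limma over all probes), a comparison in which 0 probes passed the threshold once row or brightness was in the fit. The Actb difference was -2.46 in HFD + LPS vs. HFD (adjusted p = 0.0856, limma) and -0.14 in HFD vs. control (adjusted p = 1.00, limma), neither of which passed. In HFD + LPS it was below control under every normalisation run, with differences of -2.04 to -2.73, but with normexp background correction the difference was -1.07.

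The gene-named probes whose pattern was most like that of Carhsp1 were sought by Pearson's r over the 9 arrays, among 26 probes well above background on all of them. This r is mostly set by the distance between the HFD + LPS mice and the rest, the arrays share their normalisation, and it is a description with no test. The median r was 0.44 for these 26 probes and 0.10 for all 17931 probes well above background on all arrays, of which 288 (1.61%) had an r of at least 0.9. The highest were Rab5a (r = 0.90), Tm9sf1 (0.88), Acaa2 (0.81), Gsta4 (0.79) and Cav2 (0.78).

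Rab5a encodes a small GTPase of early endosomes. Its level was 4.21, 4.53 and 4.22 in control, 4.40, 4.63 and 4.75 in HFD, and 4.89, 5.15 and 5.06 in HFD + LPS. As for Carhsp1, each HFD + LPS mouse lay above all others and control replicate 2 was the highest control mouse, but the range was narrower, with 0.44 between HFD + LPS and HFD against 1.21 for Carhsp1. Tm9sf1, which encodes a membrane protein of the transmembrane 9 superfamily, also had all HFD + LPS mice (4.27, 4.51 and 4.46) above the others (3.83 to 4.13), with means of 3.96 ± 0.15 in control and 3.97 ± 0.07 in HFD (SD, n = 3). Both probes were picked by their r over these same mice, so their likeness to Carhsp1 is no separate result. Over all probes tested, HFD + LPS lay above HFD without overlap for 10.2% and above control for 14.1%.

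Acaa2, a thiolase of mitochondrial fatty acid oxidation, was 5.87 ± 0.22 in control, 6.16 ± 0.15 in HFD and 6.33 ± 0.15 in HFD + LPS (SD, n = 3), and HFD and HFD + LPS mice overlapped. Gsta4, a glutathione transferase that detoxifies products of lipid peroxidation, was lower in HFD (1.03 ± 0.18) than in control (1.29 ± 0.35), unlike Carhsp1, and reached 1.79 ± 0.26 in HFD + LPS. Cav2, which encodes caveolin-2 of the plasma membrane, was 4.25 ± 0.32, 4.92 ± 0.10 and 5.16 ± 0.27, so HFD was 0.66 above control and HFD + LPS 0.24 above HFD. None of these 5 probes had an adjusted p under 0.05 in any of the 3 comparisons (limma), the lowest being 0.0583 for Cav2 in HFD + LPS vs. control.

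Among the lowest values of r were those of Cep41 (-0.92) and Mzb1 (-0.79). Cep41 encodes a centrosomal protein, and its level was 1.02, 0.93 and 0.78 in control, 1.16, 0.62 and 0.80 in HFD, and 0.01, -0.08 and 0.47 in HFD + LPS, below all other mice. Cep41 was picked for its low r over these same mice. Mzb1, a chaperone of antibody-secreting cells, was 2.87 ± 0.53 in control, 2.14 ± 0.48 in HFD and 1.54 ± 0.30 in HFD + LPS (SD, n = 3). Their adjusted p-values were 0.159 and 0.373 in HFD + LPS vs. HFD, 0.0784 and 0.0526 in HFD + LPS vs. control, and 1.00 for both in HFD vs. control (limma), so neither passed.

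With the group means taken out, which leaves only the differences between mice of the same group, r with Carhsp1 was 0.44 for Rab5a, 0.43 for Tm9sf1, 0.65 for Acaa2, 0.76 for Gsta4 and 0.47 for Cav2. The highest were then Cpt1a (0.89), which encodes the carnitine palmitoyltransferase of fatty acid oxidation, and Lhfp (0.82), both named after their values were seen, and of the 5 probes above 2 remained among the first 5. Over the 6 mice without LPS, r was 0.85 for Rab5a, 0.80 for Tm9sf1, 0.75 for Acaa2, 0.27 for Gsta4 and 0.84 for Cav2. Other gene-named probes then had a higher r, up to 0.95. Of all probes, ASMM10AP1B107235462V4 followed Carhsp1 most closely, with r = 0.99 over the 9 arrays and 0.96 within groups, followed by ASMM10AP1B109739945V4 with 0.98 and 0.89.

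**Figure D5:**
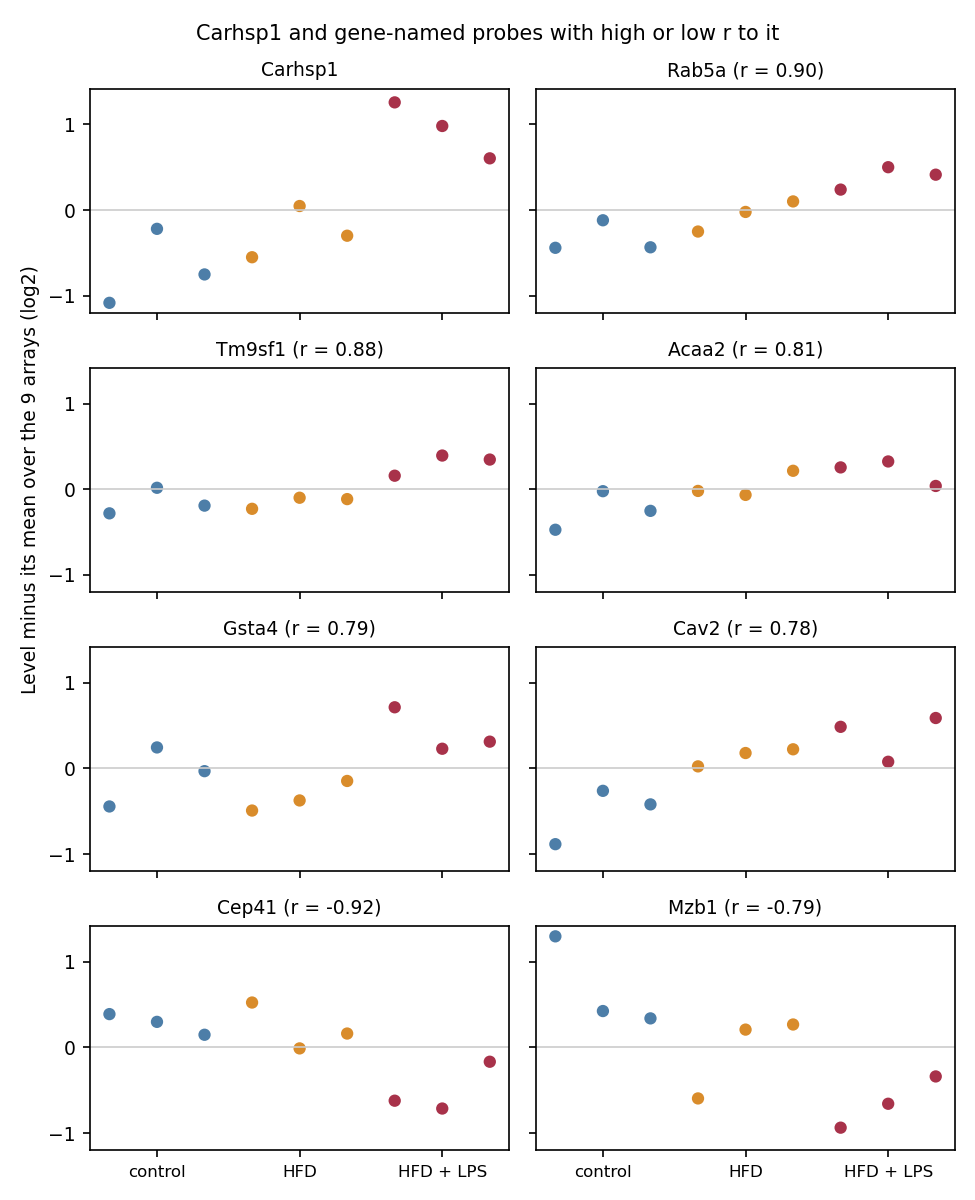
Level of Carhsp1 and of the 5 gene-named probes with the highest Pearson r to it, and of Cep41 and Mzb1 with low r, each minus its own mean over the 9 arrays (log2, y axis), for control (blue), HFD (orange) and HFD + LPS (red) mice in order of replicate number. The Carhsp1 points after LPS lie further from 0 than those of Rab5a and Tm9sf1, and Cep41 and Mzb1 lie below 0 in all HFD + LPS mice.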

How the data were processed

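The authors read 1-colour arrays with Agilent Feature Extraction 11.0.1.1, and the deposited intensity of each spot is background-subtracted and spatially detrended, with no normalisation between arrays. The log2 table the authors deposited, normalised in GeneSpring GX, has 60641 probes and none of the 50 with a transcript accession, so it gives no Carhsp1 value. The deposited flags mark each spot as outlier, saturated or well above background.

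Outlier and control spots and 132 probes spotted 3 times were not used. Log2 intensities were averaged over the spots of a probe, and each array's 75th percentile was taken off. Probes with a value on all 9 arrays (59888 of 60691) were tested where 3 or more of the 6 arrays compared were well above background. The fit (lmFit, then eBayes, from limma 3.58.1 under R 4.3.3) used all 9 arrays and group as the only term, with Benjamini-Hochberg adjustment and a threshold of 0.05. A probe counted as well above background where at least 0.5 of its spots were. The limma step was tested on simulated data. Accessions were matched to RefSeq genes (GRCm38.p6), which gave 46 symbols. Coordinates are not given, as the scanner header names another build.

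Carhsp1 and the gene lists were chosen with earlier results of these data known. Named were Carhsp1, Actb, listed genes with a probe, the 5 gene-named probes with the highest r to Carhsp1, the 3 with the lowest, of which 1 is not reported here, and 2 identifiers. Cpt1a and Lhfp were added after their values were seen. No label ties the replicates to separate animals, so the errors and p-values measure the spread between these samples, which may be technical. Alternatives were other normalisations, normexp (offset 50) on the median signal, other spot summaries, filters, blocks and tests, and leaving out each array. The signal before detrending and scaling to the 27 other accession probes well above background on all arrays were added after seeing the data.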

Additional observations from a re-analysis of the deposited data

How the results depend on the processing

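The Carhsp1 differences kept their sign under every setting run. HFD vs. control fell from 0.42 to 0.10 with row in the fit. The comparisons with LPS moved by more than the SD between mice of a group (0.31 and 0.39, pooled) only without normalisation between arrays, to 1.59 for HFD + LPS vs. HFD and 2.19 for HFD + LPS vs. control. With 1 array left out, HFD vs. control ranged from 0.22 to 0.65, HFD + LPS vs. HFD from 1.06 to 1.39 and HFD + LPS vs. control from 1.43 to 1.86. A replicate block leaves the Carhsp1 differences at 0.42, 1.21 and 1.63 by design, as each group holds each number once. Deviations of same-numbered arrays correlated with r between -0.27 and 0.37. Arrays with different numbers were not set beside them, so whether the numbers pair the mice was not tested.

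The background counts of probes with an adjusted p under 0.05 depended on the settings; the cause was not tested. HFD vs. control gave 0 in limma under every setting (1353 at an unadjusted p under 0.05), and the methods' t-test 1783 without adjustment and 0 after it. HFD + LPS vs. HFD gave 74, and 0 to 467 with an array left out (0 without HFD replicate 3, 467 without HFD + LPS replicate 1), with each of the 6 arrays moving it over 1.5 times. It gave 47 with quantile normalisation, 116 with the percentile over probes detected on every array, 166 with the median and 254 with normexp. The count was 48 with the replicate block, 41 with a block for the scan and 17 with brightness. The scan block takes HFD + LPS replicate 3 out of the estimate. The count was 0 without a dim-probe filter, and 358 where all 6 arrays had to be well above background. A fit to the 6 arrays gave 15, and the methods' t-test 3842 without and 1 after adjustment. HFD + LPS vs. control gave 1133, and 9 to 889 with an array left out (9 without control replicate 2), with each array but HFD + LPS replicate 1 moving it over 1.5 times. It gave 2226 without normalisation, 495 with the scan block and 746 with the fit to the 6 arrays. The count was 0 with row, with brightness or with no filter. The methods' t-test gave 5566 without and 3 after adjustment. The share of calls that were higher was 73.0% in HFD + LPS vs. HFD and 45.6% in HFD + LPS vs. control. It was 53.4% and 25.4% with the percentile over probes detected on every array, 82.5% and 58.9% with the median, 91.6% and 86.9% without normalisation, and 82.7% and 67.2% with normexp. The first setting moved the median of all probes by -0.10 and -0.13, and median normalisation by 0.16 and 0.12.

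Of the 5 gene-named probes most like Carhsp1, 3 were kept with Spearman's rho, 4 with quantile normalisation, 4 without normalisation and 2 with deviations from the group means. The authors' log2 values hold neither Carhsp1 nor these probes, so this was not run.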
